A study of Mus musculus with 6 samples.

Results

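The interferon-stimulated genes examined here were 39 genes chosen by symbol, with earlier results of these data known. All 39 were found among the 54532 named rows measured in the anterior prostate (AP) of the mouse. Of these, 34 reached a mean of at least 1 FPKM over the samples and were among the 12553 genes tested. The other 5 are given below by their reads, which are not on the FPKM scale. RNA-seq was done on APs of 20-week-old male mice, 3 samples named OEx and 3 named Ctrl. OEx mice were Pbsn-Cre Rosa26 N1ICD/+, in which the Notch1 intracellular domain (N1ICD) is switched on in cells that express Cre from the probasin (Pbsn) promoter, a promoter of prostatic epithelium. Ctrl mice were Rosa26 N1ICD/+ and carried the same silent N1ICD allele without Cre, although the labels call them wild type. The comparison asks how a constantly active Notch1 signal changes the gland. Each library is from whole tissue, so that fewer cells of a type and less RNA per cell cannot be told apart for any gene. The labels do not say whether a sample is 1 mouse or a pool, so the p-values measure the spread between these samples.

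Interferons are secreted proteins that cells release when sensors such as RIG-I or MDA5 meet foreign or misplaced nucleic acids. Type I and type III interferons act through the kinases Jak1 and Tyk2 on the factor ISGF3, which contains Stat2 and Irf9 and binds the interferon-stimulated response element (ISRE), while interferon gamma acts through Jak1 and Jak2 on factors that bind the gamma-activated site (GAS). The genes switched on in this way block viral entry, degrade or trap viral RNA, widen antigen processing, and include the sensors and transducers themselves, and epithelial cells, stromal cells and leukocytes can all use them.

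Notch1 was higher in every OEx sample, at 41.9, 47.6 and 78.9 FPKM against 5.18, 5.55 and 3.34 FPKM in Ctrl (log2 fold change 3.30 ± 0.27 SE, limma FDR 9.91e-05). Depth was 14762182 to 18650962 reads per library. In both groups replicates 1 and 2 were close to each other (r of log2 values 0.991 in OEx and in Ctrl) and replicate 3 stood apart (r 0.951 to 0.952 in OEx and 0.966 in Ctrl), although replicates 1 and 2 still differed by more than counting noise. Ctrl replicate 3 also held 16128 FPKM over 7 seminal vesicle genes, against at most 4.36 FPKM in any other library. The summed level of 6 macrophage markers was 252, 258 and 53.3 FPKM in OEx and 61.3, 63.7 and 140 FPKM in Ctrl, so OEx replicate 3 was below every Ctrl sample and the other OEx samples above. Luminal epithelial markers summed to 3135 to 6219 FPKM in OEx and 16819 to 20622 FPKM in Ctrl, 3 basal markers to 3.72 to 5.32 FPKM against 99.4 to 122 FPKM, and 4 smooth muscle markers to 302 to 312 FPKM against 904 to 1927 FPKM.

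The interferon-stimulated genes were on the whole somewhat higher in OEx, but by gene and not as one group. Of the 34 tested, 8 rose past both thresholds of the study, an FDR under 0.05 in limma and a fold change above 2, here of FPKM + 1. They included the cytosolic RNA sensors Ddx58, Ifih1 and Eif2ak2 and the viral RNA binders Ifit1 and Ifit2. The others were the GTPase Irgm1, the immunoproteasome subunit Psmb8 and the surface protein Ly6e. These 8 of 34 were 23.5% of the members tested, against 12.8% of all tested genes. Ifitm1, a membrane protein that blocks viral entry, and Oasl1 were called lower, which is 5.88% of the members against 15.5% of all tested genes. With the FDR alone, 17 members rose, or 50% against 30.9% of all genes, 4 fell, or 11.8% against 36.5%, and 13 did not pass. The median log2 fold change of the 34 members was 0.62, and that of all tested genes was -0.074, a distance of 0.69. All OEx samples lay above all Ctrl samples for 16 members (33.6% of all genes did) and below them for 5 (38.9% of all genes), so that 61.8% of the members did not overlap against 72.5% of all genes.

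The count depends on the scale, on the filter and on replicate 3. The 2-fold threshold was applied to log2(FPKM + 1), which compresses the fold change of low genes. In Gbp3, Xaf1, Oas1a and Rtp4, which passed the FDR uncalled, the OEx mean was 4.13, 2.26, 2.04 and 2.04 times that of Ctrl. In Mx1, also uncalled, the Ctrl mean was 2.62 times that of OEx. The deposited FPKM totals were 252054 to 270198 in OEx and 464188 to 523539 in Ctrl. With totals made equal, 22 of the 34 members were called higher and 1 lower, beside 4418 and 454 of all 12553 genes. The median of all genes moved to 0.67, and the median of the members was 1.38, still 0.71 above that of all genes. With a pseudocount of 0.1 in place of 1, which compresses low genes less, Gbp3 and Xaf1 were also called higher and Mx1 lower, and limma-voom called these 3 and Oas1a. Without replicate 3 of both groups, a choice made after the data were seen, 13 members were called higher and 2 lower, beside 1768 and 2025 of all genes. With a filter of 5 FPKM, 2 of 17 members were called higher, beside 670 of 7120 genes.

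**Figure D1:**
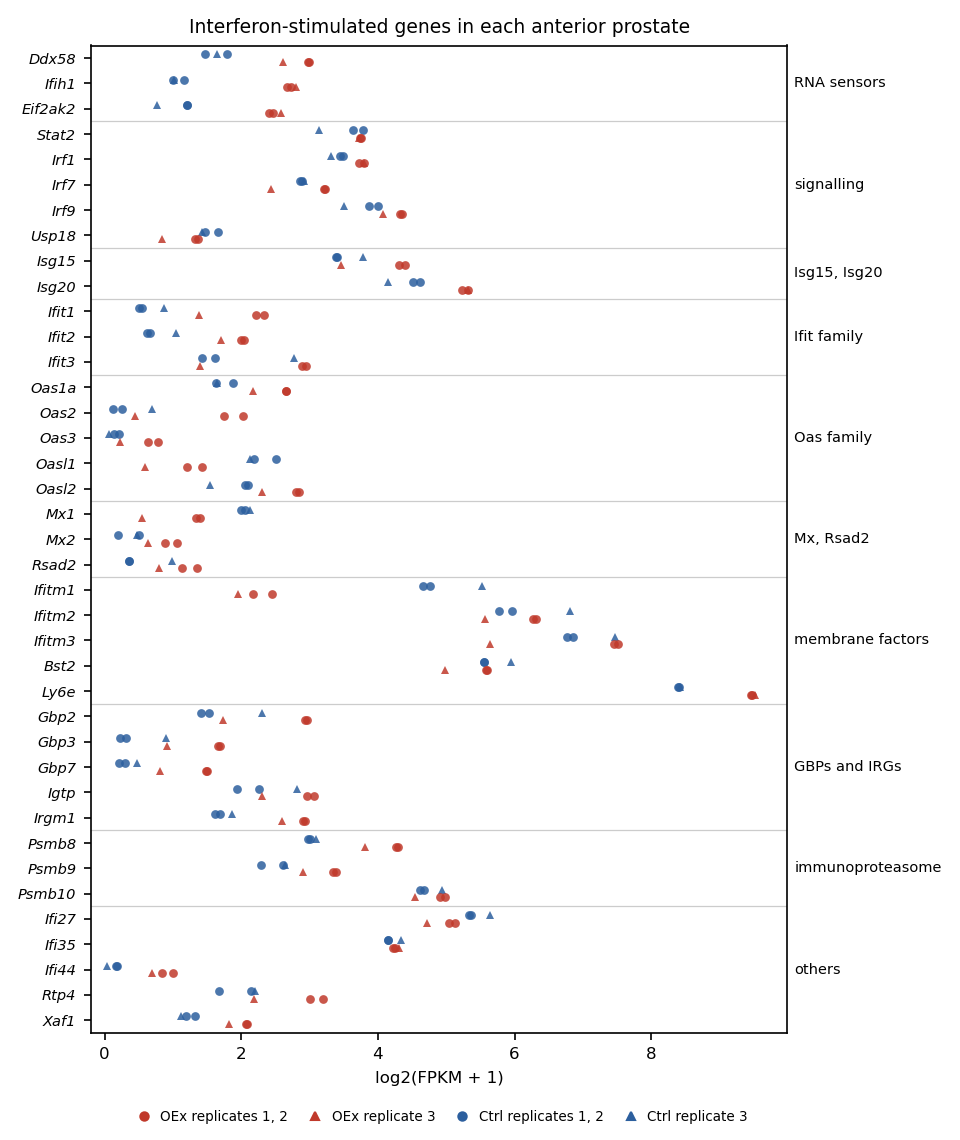
Level of each of the 39 interferon-stimulated genes as log2(FPKM + 1) in each of the 3 OEx (red) and 3 Ctrl (blue) samples, grouped by role, with triangles for replicate 3. The red points of Ifih1, Eif2ak2 and Ly6e sit together above the blue ones, whereas for Ifit3, Oas2 and Gbp2 the red triangle lies below the blue triangle.

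**Figure D2:**
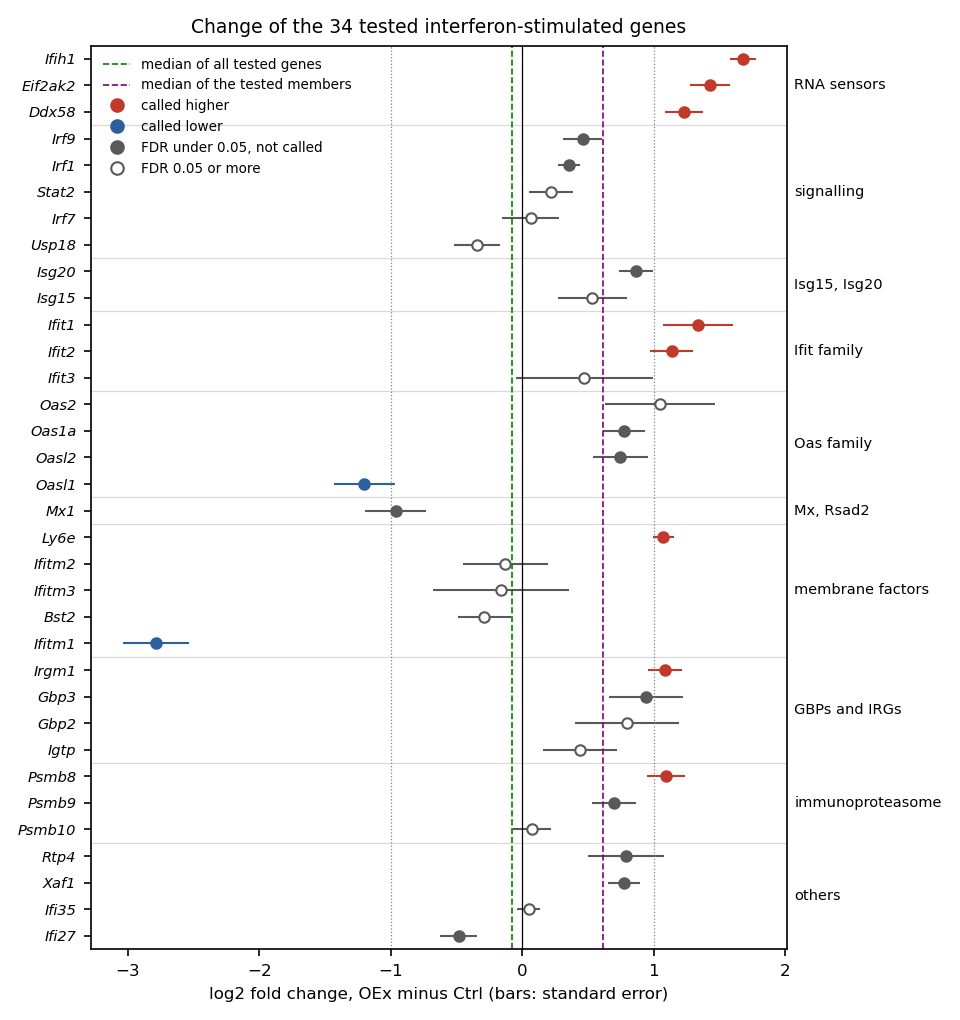
Log2 fold change, OEx minus Ctrl, of the 34 tested interferon-stimulated genes with its standard error. Red points are the 8 genes called higher and blue points the 2 called lower; dashed lines mark the median of all tested genes at -0.074 and that of the members at 0.62.

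The ISRE is shown here because it is the element that ISGF3 binds. It was searched on both strands as GAAA, any 2 bases and GAAA, in the promoter window from 250 bases before to 50 bases after the gene start (RefSeq, GRCm38.p6), and 32 of the 39 members have such a window. An ISRE match was present in 18 of these 32 genes, or 56.2%, against 3.99% of 27025 genes with a window. The GAS letters, TTC, any 3 bases and GAA, were in 11 of 32 (34.4%, against 9.55% of all genes), and TGGGAA, the core bound by the Notch factor RBPJ, was in 15 of 32 (46.9%, against 28.3%). A match to these letters is a description and not a bound site. The stretches are written 5′ to 3′ on the strand of the gene, with each whole match in capitals (a match that reads TTTC, 2 bases, TTTC lies on the other strand). Those of 5 genes called higher come first, and the next 4 are of genes that were not called.
Ddx58, chr4:40239804-40239833, minus strand: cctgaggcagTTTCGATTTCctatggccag
Ifih1, chr2:62646206-62646233, minus strand: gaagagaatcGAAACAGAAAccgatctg
Eif2ak2, chr17:78882535-78882564, minus strand: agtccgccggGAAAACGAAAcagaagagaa
Ifit1, chr19:34640794-34640823, plus strand: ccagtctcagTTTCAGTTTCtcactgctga
Irgm1, chr11:48871425-48871454, minus strand: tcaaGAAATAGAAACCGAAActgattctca
Ifitm3, chr7:141010706-141010735, minus strand: aaacttctgaGAAACCGAAActgccgcaga
Ifitm2, chr7:140955988-140956017, minus strand: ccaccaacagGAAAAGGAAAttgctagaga
Bst2, chr8:71537577-71537606, minus strand: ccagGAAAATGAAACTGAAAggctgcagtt
Isg15, chr4:156200865-156200894, minus strand: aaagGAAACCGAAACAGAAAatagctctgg

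The element was found on both sides of the call. It was in 5 of the 7 genes called higher that have a window and in 0 of the 2 called lower. Of the 19 tested but not called, 10 held it, and among these 19 it was in 8 of the 11 that did not pass the FDR. It was also in 3 of the 4 that were not tested. Positions are counted from the RefSeq start of the window. This start can differ from the end of the gene coordinates given below, and the stretch of Irgm1 lies inside those coordinates. The printed match begins 33 bases downstream in Ifih1 and 19 bases downstream in Eif2ak2, and at -24 in Irgm1 and -85 in Ifit1. In genes that were not called it begins 20 bases downstream in Ifitm3, and at -46 in Ifitm2, -66 in Isg15 and -124 in Bst2, so that both sets hold matches on either side of the start. RBPJ letters were in 2 of the 7 windows of genes called higher.

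The 3 RNA sensors were all called higher, and no other role group was called as a whole. Ifih1 encodes MDA5, which binds long double-stranded RNA, and lies at chr2:62595798-62646255 (GRCm38). Its level was 5.62, 5.37 and 5.96 FPKM in OEx and 0.999, 1.23 and 1.02 FPKM in Ctrl (log2 fold change 1.68 ± 0.098 SE, limma FDR 3.84e-05). The 3 OEx values lay together, 5.22 times the Ctrl mean. Eif2ak2 encodes PKR, the kinase that stops translation when it binds double-stranded RNA (chr17:78852564-78882573). It reached 4.54, 4.32 and 4.97 FPKM in OEx against 1.3, 1.31 and 0.695 FPKM in Ctrl (log2 fold change 1.43 ± 0.15 SE, limma FDR 0.000249). As in Ifih1, OEx replicate 3 was the highest of all 6 samples. Ddx58 encodes RIG-I, which senses short RNA ends with a triphosphate (chr4:40203773-40239828). It stood at 6.87, 6.93 and 5.13 FPKM in OEx and 1.77, 2.44 and 2.12 FPKM in Ctrl (log2 fold change 1.23 ± 0.14 SE, limma FDR 0.000386). The groups were apart, with OEx replicate 3 the lowest of the OEx samples. Eif2ak2 and 15 other members, Psmb8 and Oasl1 among them, overlap another annotated gene, and the strand setting of the counting was not given in the sources used here, so reads of the partners cannot be told apart.

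None of the 5 signal transducers and regulators was called. Irf9, the DNA-binding part of ISGF3, was the highest of them at 19.3, 19.1 and 15.9 FPKM in OEx and 15.0, 13.6 and 10.4 FPKM in Ctrl (log2 fold change 0.46 ± 0.15 SE, limma FDR 0.0319). All OEx samples were above all Ctrl samples, by 1.39 times in the means. Irf1, a transcription factor induced by interferon gamma, had 12.2 to 12.9 FPKM in OEx and 8.95 to 10.3 FPKM in Ctrl (log2 fold change 0.36, limma FDR 0.00859). Stat2, a transducer within ISGF3, had 12.2 to 12.5 FPKM against 7.78 to 12.8 FPKM (0.22, limma FDR 0.286). Irf7, the factor that amplifies type I interferon production, had 8.31, 8.28 and 4.40 FPKM in OEx and 6.24 to 6.57 FPKM in Ctrl, so that OEx replicate 3 lay below every Ctrl sample and the other OEx samples above. Usp18 removes Isg15 from proteins and damps the type I receptor. It had 0.794 to 1.58 FPKM in OEx and 1.70 to 2.16 FPKM in Ctrl, which do not overlap but differed by -0.34 (limma FDR 0.119).

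Isg15 and Isg20 differed in how far their samples agreed. Isg20, an exonuclease that degrades viral RNA, had 36.5, 39.1 and 39 FPKM in OEx and 23.5, 21.8 and 16.8 FPKM in Ctrl (chr7:78913424-78920396, log2 fold change 0.87 ± 0.13 SE, limma FDR 0.00123). Its OEx mean was 1.85 times that of Ctrl, and its log2 fold change was short of the threshold of 1. Isg15, a ubiquitin-like protein that is joined to others during the interferon response, had 20.1, 18.8 and 10.04 FPKM in OEx and 9.52, 9.50 and 12.8 FPKM in Ctrl. Replicates 1 and 2 of OEx were above Ctrl and replicate 3 was not, and the difference did not pass (0.53 ± 0.26 SE, limma FDR 0.114).

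Of the Ifit family, whose proteins bind viral RNA and hold it away from ribosomes, Ifit1 and Ifit2 were called higher and Ifit3 was not. Ifit1 had 4.04, 3.64 and 1.61 FPKM in OEx and 0.421, 0.465 and 0.818 FPKM in Ctrl (chr19:34640871-34650009, log2 fold change 1.34 ± 0.27 SE, limma FDR 0.00428). Its OEx mean was 5.45 times that of Ctrl, and OEx replicate 3 had 0.418 times the mean of the other OEx samples. Ifit2 had 3.11, 2.98 and 2.27 FPKM in OEx and 0.590, 0.531 and 1.07 FPKM in Ctrl (chr19:34550694-34576419, log2 fold change 1.14 ± 0.17 SE, limma FDR 0.00104). In Ifit3 (chr19:34583531-34588731) the replicates crossed, with 6.41, 6.72 and 1.62 FPKM in OEx and 2.06, 1.68 and 5.81 FPKM in Ctrl (0.47 ± 0.52 SE, limma FDR 0.448). The lowest of the 6 values was OEx replicate 3 and the highest Ctrl sample was replicate 3. Ifit3 has a close copy, Ifit3b, and reads of such pairs can be split between them.

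The Oas family, which includes the enzymes that make the short oligoadenylates that activate RNase L, moved both ways. Oasl2, an Oas-like protein and the highest of the family, had 6.17, 5.95 and 3.91 FPKM in OEx and 3.30, 3.14 and 1.92 FPKM in Ctrl (chr5:114896936-114912234, log2 fold change 0.75 ± 0.21 SE, limma FDR 0.0180). Its neighbour Oasl1, known to hold back translation of Irf7, went the other way, at 1.31, 1.69 and 0.510 FPKM in OEx and 3.56, 4.71 and 3.38 FPKM in Ctrl (chr5:114923240-114937915, log2 fold change -1.20 ± 0.23 SE, limma FDR 0.00373). Every OEx sample lay below every Ctrl sample, and the Ctrl mean was 3.32 times that of OEx. The call for Oasl1 was lost without OEx replicate 3 (-0.96) and with equal FPKM totals (-0.62). Oas1a had 3.53 to 5.29 FPKM against 2.09 to 2.67 FPKM (0.78, limma FDR 0.00485). Oas2 had 3.09, 2.36 and 0.361 FPKM in OEx against 0.0898 to 0.621 FPKM in Ctrl, and with a difference of 1.05 it missed the FDR (limma, 0.0622). Oas3 was under the filter of 1 FPKM, with 101, 89 and 22 reads in OEx and 14, 9 and 5 reads in Ctrl.

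Mx1, a GTPase that traps the particles of influenza-like viruses, fell at the FDR, and whether it was called depended on the scale. It had 1.63, 1.53 and 0.468 FPKM in OEx and 3.17, 2.98 and 3.36 FPKM in Ctrl (chr16:97447035-97462907, log2 fold change -0.96 ± 0.23 SE, limma FDR 0.00953). All OEx samples were below all Ctrl samples, and the Ctrl mean was 2.62 times that of OEx. Mx1 was called lower with a pseudocount of 0.1 (-1.48), with limma-voom (-1.54), without OEx replicate 1 (-1.11) or 2 (-1.08) and with replicates 1 and 2 as 1 sample (-1.11), while with equal FPKM totals it did not pass the FDR (-0.39). Its neighbour Mx2 was under the filter of 1 FPKM, with 61, 89 and 36 reads in OEx and 19, 7 and 21 reads in Ctrl, and these counts do not overlap either but lie the other way. Rsad2, which encodes viperin and makes a chain-ending nucleotide, had 135, 119 and 57 reads in OEx and 15, 16 and 65 reads in Ctrl, where replicate 3 of the groups crossed.

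The membrane factors held the most abundant members and the largest decrease. Ly6e, a glycolipid-anchored surface protein that restricts coronaviruses, had 712, 700 and 731 FPKM in OEx and 338, 335 and 342 FPKM in Ctrl (chr15:74955051-74959905, log2 fold change 1.07 ± 0.082 SE, limma FDR 7.96e-05). Its spread was small in both groups and replicate 3 did not stand apart in either. Ifitm1 had 4.49, 3.52 and 2.89 FPKM in OEx and 24.3, 26.2 and 45.1 FPKM in Ctrl (chr7:140967221-140969825, log2 fold change -2.79 ± 0.25 SE, limma FDR 0.000137). The Ctrl mean was 8.78 times that of OEx, and the groups were far apart. The basal markers (3.72 to 5.32 FPKM in OEx, 99.4 to 122 FPKM in Ctrl) and the smooth muscle markers (302 to 312 FPKM, 904 to 1927 FPKM) were lower in the same samples, all 3 and all 4 of them called lower. So was the sum of 5 endothelial markers (6.52 to 7.66 FPKM, 17.5 to 23.1 FPKM), of which Emcn was called lower (-2.03). The part of these cell types in the decrease of Ifitm1 was not tested. Its neighbours on chromosome 7 did not follow it. Ifitm2 had 46.3 to 78.7 FPKM in OEx and 53.5 to 111 FPKM in Ctrl, a difference of -0.13 (limma FDR 0.741). Ifitm3 had 183, 174 and 48.8 FPKM in OEx and 115, 108 and 176 FPKM in Ctrl, a difference of -0.16 (limma FDR 0.797). Both signs turned with upper-quartile scaling and with equal FPKM totals, and also without replicate 3 of either group. Bst2, or tetherin, which holds budding virus at the cell surface, had 30.7 to 47.6 FPKM in OEx and 45.8 to 60.6 FPKM in Ctrl (-0.29, limma FDR 0.238), and its sign turned with equal FPKM totals and without replicate 3 of both groups.

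Guanylate-binding proteins and immunity-related GTPases, which attack the vacuoles of intracellular microbes, had positive differences in all 4 genes tested. Irgm1, a regulator of the other GTPases of its family, was called higher at 6.49, 6.62 and 5.02 FPKM in OEx and 2.05, 2.22 and 2.65 FPKM in Ctrl (chr11:48861968-48871683, log2 fold change 1.09 ± 0.13 SE, limma FDR 0.000449). Its OEx mean was 2.62 times that of Ctrl with the groups apart. Igtp, the highest of the group over the 6 samples, had 7.34, 6.81 and 3.95 FPKM in OEx and 3.80, 2.83 and 6.05 FPKM in Ctrl (chr11:58199556-58207591, 0.44 ± 0.28 SE, limma FDR 0.209). OEx replicate 3 fell between the Ctrl samples. Gbp3 had 0.882 to 2.24 FPKM in OEx and 0.171 to 0.867 FPKM in Ctrl, apart by a narrow margin (0.94, limma FDR 0.0223). Gbp2 had 6.65, 6.78 and 2.33 FPKM against 1.66 to 3.95 FPKM and did not pass (0.80, limma FDR 0.113). Gbp7 was under the filter of 1 FPKM, with 204, 229 and 76 reads in OEx and 16, 11 and 33 reads in Ctrl. The Gbp genes are close copies of each other, and Igtp overlaps Irgm2 on the same strand, so their reads are uncertain.

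The immunoproteasome replaces 3 catalytic subunits of the proteasome and widens the peptides shown on MHC class I. Psmb8 was called higher, at 18.7, 18.2 and 13.0 FPKM in OEx and 7.04, 6.89 and 7.58 FPKM in Ctrl (chr17:34197721-34201454, log2 fold change 1.10 ± 0.15 SE, limma FDR 0.000671). The groups were apart, at 2.32 times in the means. Psmb9, its neighbour on chromosome 17, rose less, with 6.5 to 9.45 FPKM against 3.86 to 5.23 FPKM (0.70, limma FDR 0.00886). Psmb10, the most abundant of the 3, had 29.0, 30.6 and 22.4 FPKM in OEx and 23.4, 24.4 and 29.6 FPKM in Ctrl (chr8:105935735-105938444, 0.075 ± 0.15 SE, limma FDR 0.671). The samples of the groups were mixed in Psmb10, so the 3 subunits did not share a pattern.

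The remaining members followed no common direction. Ifi27, a small mitochondrial protein, fell, with 34.1, 32.0 and 25.3 FPKM in OEx and 40.1, 39.5 and 49.1 FPKM in Ctrl (chr12:103434211-103440239, log2 fold change -0.48 ± 0.14 SE, limma FDR 0.0215), and its sign turned with equal FPKM totals. Xaf1, which blocks an inhibitor of caspases, rose, with 2.53 to 3.25 FPKM against 1.18 to 1.5 FPKM (0.78, limma FDR 0.00144). Rtp4, a chaperone of membrane receptors, had 8.21, 7.04 and 3.54 FPKM against 2.17 to 3.61 FPKM (0.79, limma FDR 0.0461). Ifi35 was level, at 17.6 to 18.9 FPKM against 16.7 to 19.2 FPKM (0.051 ± 0.087 SE, limma FDR 0.627). Ifi44 was under the filter of 1 FPKM, with 123, 110 and 68 reads in OEx and 10, 10 and 2 reads in Ctrl. In FPKM, the OEx mean of the genes under the filter was 8.66 times that of Ctrl in Ifi44, 4.75 in Oas3, 2.60 in Mx2, 2.25 in Rsad2 and 5.69 in Gbp7.

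The samples of a group differed in a way that many members shared. OEx replicate 3 was the lowest OEx sample for 28 of the 34 members, or 82.4%, against 30.9% of all tested genes. It was under 0.75 times the mean of the other OEx samples for 22 members, or 64.7%, against 12.6% of all genes. For Irf7, Igtp, Rtp4, Isg15, Gbp2, Ifit3 and Oas2, 7 members and 20.6% of those tested against 3.77% of all genes, OEx replicates 1 and 2 lay above all Ctrl samples and replicate 3 did not. Ctrl replicate 3 was the highest Ctrl sample for 22 members, or 64.7% against 38.6% of all genes. The macrophage marker sums given above moved with this pattern, as did those of 5 fibroblast markers (166, 168 and 21.5 FPKM in OEx, 46.2, 45.2 and 80.0 FPKM in Ctrl). The sum of 8 T and NK cell markers did so within OEx (15.5, 16.0 and 4.36 FPKM, against 4.04 to 5.83 FPKM in Ctrl). Other sums did not drop as far in OEx replicate 3. In OEx, 5 leukocyte markers summed to 58.6, 62.6 and 57.8 FPKM. Among them Cd52 was highest in replicate 3 (24.7, 25.4 and 49.4 FPKM), while Ptprc, Coro1a, Laptm5 and Cd53 were lowest in it. The endothelial sum was 7.54, 7.66 and 6.52 FPKM in OEx, and the smooth muscle sum 312, 310 and 302 FPKM. The part of these cell types in the pattern was not tested. Of the 6 macrophage markers, 0 passed the FDR in limma or in limma-voom, and 0 had an unadjusted limma p under 0.05. All 6 differences were nonetheless positive (0.45 to 1.08). With 3 samples per group and OEx replicate 3 so far from the others, the test cannot show that these markers were unchanged. The decrease in OEx replicate 3 did not touch every member: against the other OEx samples its level was 1.08 times in Ifih1, 1.12 times in Eif2ak2, 1.04 times in Ly6e and 1.03 times in Isg20. The genes lowest in it were Oas2 at 0.133 times, Ifit3 at 0.247 times and Ifitm3 at 0.273 times, and Mx1 and Oasl1, which were lower in OEx throughout, stood at 0.297 and 0.340 times.

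**Figure D3:**
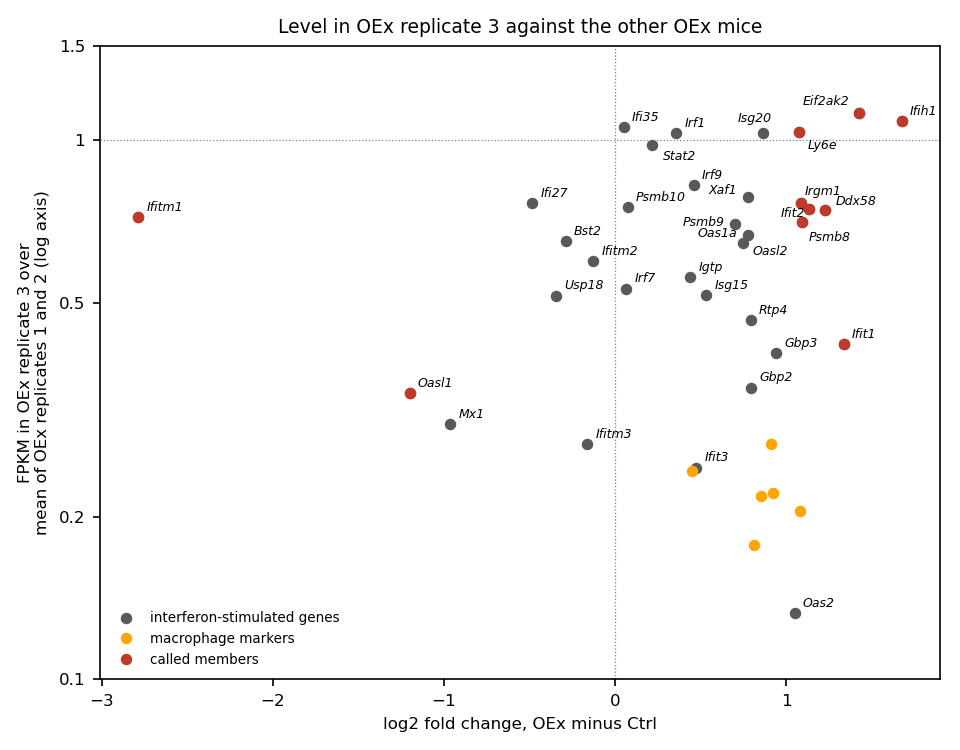
FPKM of OEx replicate 3 over the mean of OEx replicates 1 and 2 (log axis) against the log2 fold change, OEx minus Ctrl, for the 34 tested interferon-stimulated genes (called ones in red) and 6 macrophage markers (orange). Ifih1, Eif2ak2 and Ly6e lie above 1 on the vertical axis, most members lie below it, and the 6 macrophage markers lie between 0.18 and 0.27.

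The interferon genes themselves had almost no reads in any sample. Of 21 ligand genes, none was tested, 14 had no read in any sample, and the highest count in any library was 3 reads (Ifnk in OEx replicate 1), with at most 2 reads of Ifnb1 and of Ifng in any library. At these depths a count of 0 allows a CPM of up to 0.161 to 0.203, for counting error only. The level of an interferon at another time, or its protein, was not measured.

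Interferon receptors showed no common change. Ifnlr1, the specific chain of the type III (lambda) receptor that epithelia carry, rose from 3.54, 3.93 and 2.66 FPKM in Ctrl to 7.30, 6.89 and 7.15 FPKM in OEx (log2 fold change 0.90 ± 0.13 SE, limma FDR 0.000888). Ifngr1, the ligand-binding chain for interferon gamma, fell from 49.9, 50.4 and 45.1 FPKM in Ctrl to 32.8, 30.9 and 27.0 FPKM in OEx (-0.67 ± 0.10 SE, limma FDR 0.00118). In both genes the groups were apart in every sample on the deposited FPKM scale. With equal FPKM totals the median of all tested genes moved from -0.074 to 0.67, so the fall of Ifngr1 may not hold on that scale. The type I receptor chains Ifnar1 (0.073, limma FDR 0.529) and Ifnar2 (-0.12, limma FDR 0.379), the second gamma chain Ifngr2 (0.0016, limma FDR 0.988) and the shared chain Il10rb (0.083, limma FDR 0.807) did not pass.

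Across the pathway list of ligands, receptors, kinases, sensing genes and negative regulators, 52 of 54 symbols were in the files and 27 were tested, of which 3 were called higher in limma (11.1%, against 12.8% of all tested genes) and 0 lower (against 15.5%). With the FDR alone 10 rose (37.0%, against 30.9%) and 5 fell (against 36.5% of all genes), also 5 at an unadjusted p under 0.05, and limma-voom called 1 lower. Jak2, the kinase at the interferon gamma receptor, was called higher at 12.2, 12.05 and 12.3 FPKM in OEx and 3.21, 3.24 and 4.08 FPKM in Ctrl (log2 fold change 1.55 ± 0.10 SE, limma FDR 4.94e-05). Its OEx samples were tightly grouped. Tlr3, the endosomal receptor for double-stranded RNA, had 3.59, 3.51 and 4.02 FPKM in OEx and 0.998, 0.816 and 1.36 FPKM in Ctrl (1.20 ± 0.13 SE, limma FDR 0.000295). Zbp1, a sensor of Z-form nucleic acids, had 3.03, 2.81 and 0.738 FPKM in OEx and 0.317 to 0.372 FPKM in Ctrl (1.16 ± 0.32 SE, limma FDR 0.0177). Jak2 and Tlr3 were as high in OEx replicate 3 as in the others, and Zbp1 was not. Beside Ifngr1, the genes that fell at the FDR alone, named after their values were seen, were the RIG-I and MDA5 adaptor Mavs (-0.46), the Tlr3 adaptor Ticam1 (-0.45), the phosphatase Ptpn11 (-0.45) and Irf3, the factor that first induces interferon (-0.97). These falls are also on the deposited FPKM scale and may not hold with equal totals, where the median of all genes was 0.67.

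**Figure D4:**
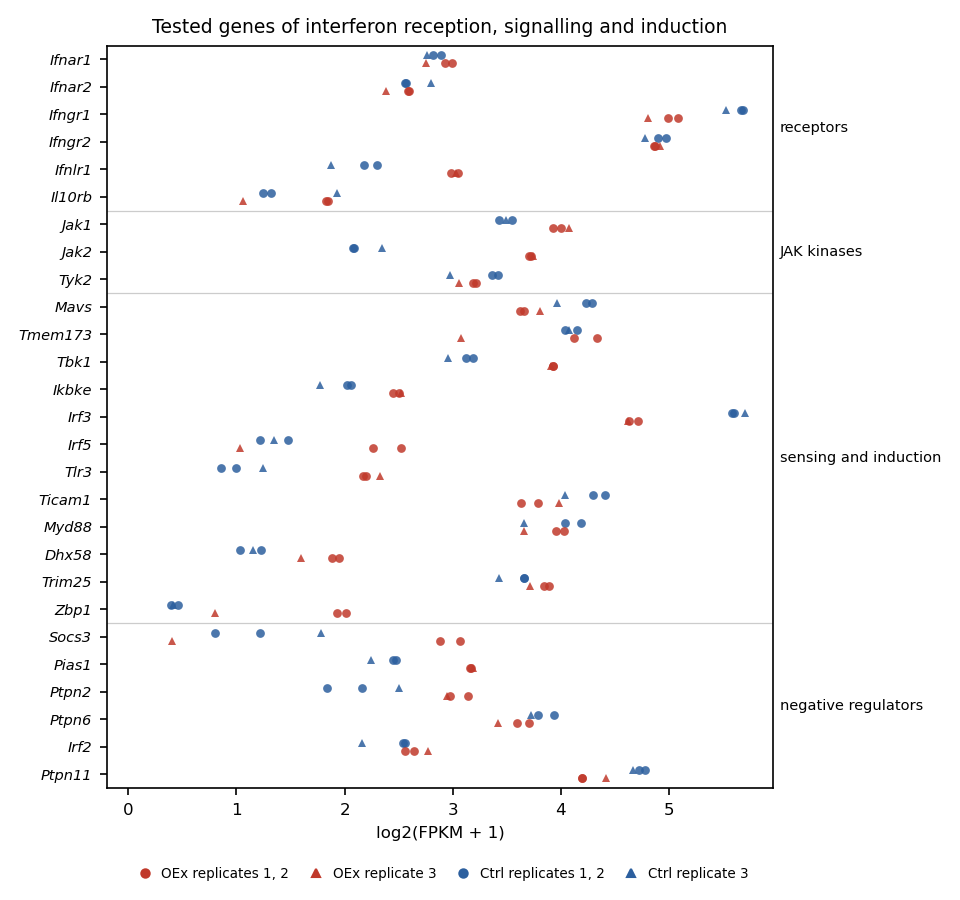
Level of the 27 tested genes of interferon reception, signalling and induction as log2(FPKM + 1) in each of the 3 OEx (red) and 3 Ctrl (blue) samples, with triangles for replicate 3. Jak2, Tlr3 and Ifnlr1 lie higher in every OEx sample, Ifngr1 and Irf3 lie lower, and the Ifnar1 samples overlap.

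A further 47 interferon-induced genes outside the 39 members, also listed with earlier results of these data known, were all in the files and 30 were tested. Of these, 8 were called higher in limma, or 26.7% against 12.8% of all tested genes, and 0 lower, against 15.5% of all genes, and limma-voom also called 0 lower. With the FDR alone 20 rose (66.7%, against 30.9% of all genes) and 2 fell (6.67%, against 36.5%), also 2 at an unadjusted p under 0.05. Their median log2 fold change was 0.75, beside 0.62 for the members. The genes called higher were Oas1b (1.54), a gene of flavivirus resistance beside Oas1a, Oas1g (1.01), the vacuole GTPase Iigp1 (1.33), the ADP-ribosyltransferase Parp14 (1.26), the antiviral Trim30a (1.22), the nucleotide hydrolase Samhd1 (1.14), the MHC class I activator Nlrc5 (1.19) and the helicase Helz2 (1.21). Samhd1 was the most abundant of them, at 20.5, 20.8 and 17.0 FPKM in OEx and 8.36, 8.38 and 7.97 FPKM in Ctrl (limma FDR 0.000128). Helz2 was higher in OEx replicate 3 (5.12 FPKM) than in the other OEx samples (4.19 and 4.37 FPKM), while Iigp1 (3.89, 3.0 and 0.799 FPKM) and Nlrc5 (2.64, 2.46 and 0.594 FPKM) were reduced in it, so both kinds of sample pattern seen among the members were also present here. The genes that fell at the FDR alone, on the deposited FPKM scale, were Irf8 (-0.52) and Psme2 (-0.35), named after their values were seen.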

How the data were processed

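APs of 3 OEx and 3 Ctrl samples were sequenced from TruSeq libraries. The authors deposited FPKM values, 1 table per sample. The submitters' processing notes name HISAT2 2.0.5, featureCounts 1.5.0-p3, StringTie 1.3.3b and CASAVA, and the genome build and the strand setting were not given in the sources used here. Of 55076 rows, 544 without a gene name (0.632% to 1.21% of the FPKM total of a sample) were left out. Reads were recovered from FPKM and the GENCODE exon length (GRCm38): 96.9% to 97.5% of the values below 1000 reads were whole within 0.05 reads. The FPKM denominators were 1.22 to 1.35 times these reads in OEx and 0.726 to 0.815 times in Ctrl.

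Genes averaging 1 FPKM or more were fitted as log2(FPKM + 1) in limma 3.58.1 (R 4.3.3) by group, two-sided, with an intensity trend and Benjamini-Hochberg adjustment over all 12553 genes. Fold changes are on this scale, which understates those of low genes. A gene was called at FDR under 0.05 and a log2 fold change beyond 1. The fit was tested on simulated data. The members and lists were chosen with earlier results of these data known. Members that were called, or the highest of their role group, are given in full, others by range. From the other lists the called genes and the receptors are named, and 1 gene of the pathway list is not reported here. Alternatives were other pseudocounts, filters, scalings, a fit without trend, a replicate block, samples left out, the FDR alone and limma-voom on the recovered reads, with the FPKM denominators as library sizes.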

Additional observations from a re-analysis of the deposited data

How the results depend on the processing

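With the thresholds of the study and a filter of 5 FPKM, 2 of 17 members were called higher, beside 670 of 7120 genes. With equal FPKM totals 22 of 34 were called higher, beside 4418 of 12553 genes. Without replicate 3 of both groups 13 were, beside 1768 genes, and with the FDR alone 17, beside 3875. With 1 sample left out 8 to 12 were, the most without OEx replicate 3, beside 1569 to 1671 genes. All genes called higher numbered 2248 with a pseudocount of 0.1, 2317 with upper-quartile scaling and 2240 of 12463 with limma-voom. Members called lower numbered 1, 1, 2 and 4 in the same order, beside 1544, 454, 2025 and 4584 of all genes. With 1 sample left out they numbered 1 to 3, beside 1910 to 1963 genes. The median of the members was 0.22 with a filter of 5 FPKM, 1.38 with equal totals, 0.86 without replicate 3 and 0.50 to 0.85 with 1 sample left out. Pathway genes called higher numbered 5 with a pseudocount of 0.1, 1 with a filter of 5 FPKM, 12 with equal totals, 7 with upper-quartile scaling, 6 with limma-voom, 6 without replicate 3, 10 with the FDR alone and 2 to 5 with 1 sample left out, and those called lower 1 with limma-voom, 5 with the FDR alone and 0 to 1 with 1 sample left out. The other interferon-induced genes called higher numbered 13 with a pseudocount of 0.1, 2 with a filter of 5 FPKM, 24 with equal totals, 13 with limma-voom, 14 without replicate 3, 4 with replicates 1 and 2 of a group counted as 1 sample (added, as was leaving out replicate 3 of both groups, after seeing the data), 20 with the FDR alone and 5 to 13 with 1 sample left out, and those called lower 2 with the FDR alone. Signs turned in Bst2 (0.59 with equal totals, -0.39 to 0.045 with samples left out), Ifi27 (0.40 with equal totals), Usp18 (0.21 with equal totals), Ifitm2 (0.76 with equal totals, 0.16 with upper quartiles, -0.33 to 0.43 with samples left out), Ifitm3 (0.73, 0.13 and -0.49 to 0.67 likewise), Irf7 (-0.067 to 0.34 with samples left out, -0.074 with replicates 1 and 2 as 1 sample) and Psmb10 (-0.0095 to 0.31 and -0.040 likewise). Irgm1 and Psmb8 fell just under the 2-fold threshold with replicates 1 and 2 as 1 sample. Of all calls, 45.2% were in the higher direction, 90.7% with equal totals, 65.2% with upper quartiles and 30.3% with a filter of 5 FPKM. The cause was not tested, except that the scalings shift all genes (medians -0.074, 0.67 and 0.17) and the filter leaves fewer of them. With the replicate block the members numbered 8 higher and 2 lower, and no member's call changed. Samples with the same number did not deviate together (r -0.31 to -0.19). Because replicate 3 stood apart in both groups, these values cannot show whether the number marks a shared origin. Oas3, Mx2, Rsad2, Gbp7 and Ifi44 were left out by the filter of 1 FPKM, and with no filter all 39 members were tested with 8 called higher and 2 lower. Depth limits the ligands, which had at most 3 reads.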
